A study of Mus musculus with 12 samples.

Results

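The genes described here are the matrix metalloproteinases (MMPs), the ADAM and ADAMTS metalloproteinases and the tissue inhibitors of metalloproteinases (TIMPs) in mouse melanocytic cell lines. They were taken by name and biotype from the deposited count table: protein-coding genes whose symbol begins with Mmp, Adam or Adamts and a digit, or is Timp1 to Timp4. This gave 69 of the 34513 genes listed, made up of 21 MMP, 25 ADAM, 19 ADAMTS and 4 TIMP genes. The study asked what SX-682, an antagonist of the chemokine receptors CXCR1 and CXCR2, does to pigment cells in culture without other cell types around them.

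RNA was sequenced from 3 lines: MelanA, a non-tumorigenic murine melanocyte line, and the murine melanoma lines B16F0 and B16F10, the last being the metastatic subline. Each line was left untreated (control) or given SX-682, which made 6 groups of 2 libraries and 12 libraries in all. The dose and duration for these libraries are not given in the sources used here. The labels do not say whether the 2 libraries of a group came from separate cultures, so the p-values measure the spread between these libraries, which may be technical. Each line stands for itself only, since 1 line of each kind was sequenced. Library totals ran from 48876982 to 85322092 counts. A count of 3 reads, taken as the detection floor, corresponded to 0.0330 to 0.0623 CPM. Here CPM is the count scaled to the library total after that total was adjusted by its TMM scaling factor, not to the total as listed.

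MMPs and the related ADAM and ADAMTS families are zinc-dependent endopeptidases that cut extracellular matrix and cell surface proteins. MMPs degrade collagens, gelatin and other matrix components, and the membrane-type MMPs act at the cell surface. ADAMs are membrane-anchored and release the ectodomains of growth factors, receptors and adhesion molecules, whereas ADAMTS enzymes are secreted and cut proteoglycans, procollagens and other matrix proteins. TIMPs bind the active site and block these enzymes to different degrees, TIMP3 being the matrix-bound member that also inhibits several ADAM and ADAMTS enzymes. In melanocytes and melanoma these genes are known for their part in migration, invasion and shedding.

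Every gene in the count table had reads in some library, so family members without any read are not among the 69. Of the 69 genes, 59 had over 3 reads in some library, and 10 (Adam4, Adam25, Adam26b, Adam28, Adam39, Adamts3, Mmp1b, Mmp8, Mmp20 and Mmp21) never did. A filter on low counts left 43 genes for testing (12 MMP, 13 ADAM, 14 ADAMTS and 4 TIMP), and the 26 that did not pass it never exceeded 12 reads in a library. Only 27 of the 69 had at least 10 reads in every library. Many therefore passed through the line in which they were high, and for those a difference between lines is built into the filter. Among them were Adam22 (B16F0), Adamts8 and Mmp10 (MelanA) and Adamts13 and Mmp9 (both B16 lines). Mmp24 passed only through libraries with SX-682, so a rise with SX-682 is built in there. Adjusted p-values for such differences are no support for them.

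The 8 MMP genes of the set that lie on chromosome 9 between 7272514 and 7674979 (mm10) were close to silent throughout. They are the stromelysins, collagenases and their relatives: Mmp1b, Mmp3, Mmp8, Mmp10, Mmp12, Mmp13, Mmp20 and Mmp27. The highest value of any of them in any library was 19 reads, for Mmp10 in MelanA with SX-682, and Mmp10 alone passed the filter. In the control libraries Mmp10 had 9 and 16 reads in MelanA and 0 in all 4 B16 libraries, so that it was at least 6.69-fold lower in B16F0 and at least 5.85-fold lower in B16F10.

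The sequences just upstream of 3 of these genes and of Timp3 are shown because the former were almost silent and Timp3 was abundant in both B16 lines. They are RefSeq promoter sequences (GRCm38.p6), all on the plus strand, read 5′ to 3′ and ending before the gene start. For Mmp3 the stretch is chr9:7445572-7445821, for Mmp10 chr9:7502092-7502341, for Mmp13 chr9:7272264-7272513 and for Timp3 chr10:86300162-86300371. Capitals mark matches to the AP-1 motif TGANTCA and, in Mmp10 only, to the amino acid response motif TGATGNAA.
Mmp3: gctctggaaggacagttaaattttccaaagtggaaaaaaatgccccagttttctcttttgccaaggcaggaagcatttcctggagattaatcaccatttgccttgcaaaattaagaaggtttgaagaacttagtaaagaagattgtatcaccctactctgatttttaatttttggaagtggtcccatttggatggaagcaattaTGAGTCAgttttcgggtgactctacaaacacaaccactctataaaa
Mmp10: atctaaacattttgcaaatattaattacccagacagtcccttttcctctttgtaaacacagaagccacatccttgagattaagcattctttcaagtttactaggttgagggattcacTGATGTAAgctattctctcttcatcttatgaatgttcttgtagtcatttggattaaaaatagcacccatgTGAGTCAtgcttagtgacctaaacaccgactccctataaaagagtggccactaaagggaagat
Mmp13: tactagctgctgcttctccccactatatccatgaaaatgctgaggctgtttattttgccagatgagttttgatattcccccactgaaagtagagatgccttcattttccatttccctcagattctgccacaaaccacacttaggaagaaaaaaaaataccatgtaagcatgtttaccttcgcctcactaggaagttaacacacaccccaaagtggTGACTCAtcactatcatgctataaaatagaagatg
Timp3: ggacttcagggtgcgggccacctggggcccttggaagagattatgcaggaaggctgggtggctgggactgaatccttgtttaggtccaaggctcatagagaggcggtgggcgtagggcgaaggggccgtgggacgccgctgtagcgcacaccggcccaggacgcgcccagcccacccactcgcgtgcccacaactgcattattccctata
The 3 MMP stretches were AT-rich, with 37.6%, 37.2% and 40.4% G and C, whereas the Timp3 stretch held 63.8% G and C and 13 CG steps, against 1 CG step in each of the others. Promoter sequences were found for 42 of the 69 genes. Within the 250 bases before the start, and on both strands, TGANTCA occurred in 8 of these 42 genes (19.0%), compared with 7.82% of 27025 genes with a promoter sequence. These 8 were Adam19, Adam25 and 6 of the 8 MMP genes on chromosome 9. Of the 42, the 27 genes that passed the filter had it in 2 (7.41%), near the share of all genes. The 15 that did not pass had it in 6 (40%). In Mmp12 the match lay before a start 2993 bases from the gene start. The first base of TGANTCA was at -46 from the start in Mmp3, -63 in Mmp10 and -35 in Mmp13. TGATGNAA occurred in Mmp10 alone (first base at -133), compared with 3.91% of all genes, and did not overlap the AP-1 match there. These matches are descriptions of the letters and no evidence that a factor binds.

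Levels of genes can be compared only per length, and are given here in CPM per kilobase of gene length. In MelanA control the highest were Timp2 at 190 CPM per kilobase, the sheddase gene Adam10 at 78.3, Adam9 at 44.5, Adamts1 at 41.1 and the membrane-type MMP gene Mmp15 at 40.3. In B16F0 control they were Adamts1 at 117, Timp2 at 112 and Adam9 at 104. In B16F10 control they were Timp2 at 113, Adam10 at 89.2 and Adam9 at 70.2. Timp2, Adam9 and Adam10 or Adamts1 thus led in each line, and the plot of control levels shows how far other genes lay apart between lines.

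**Figure D1:**
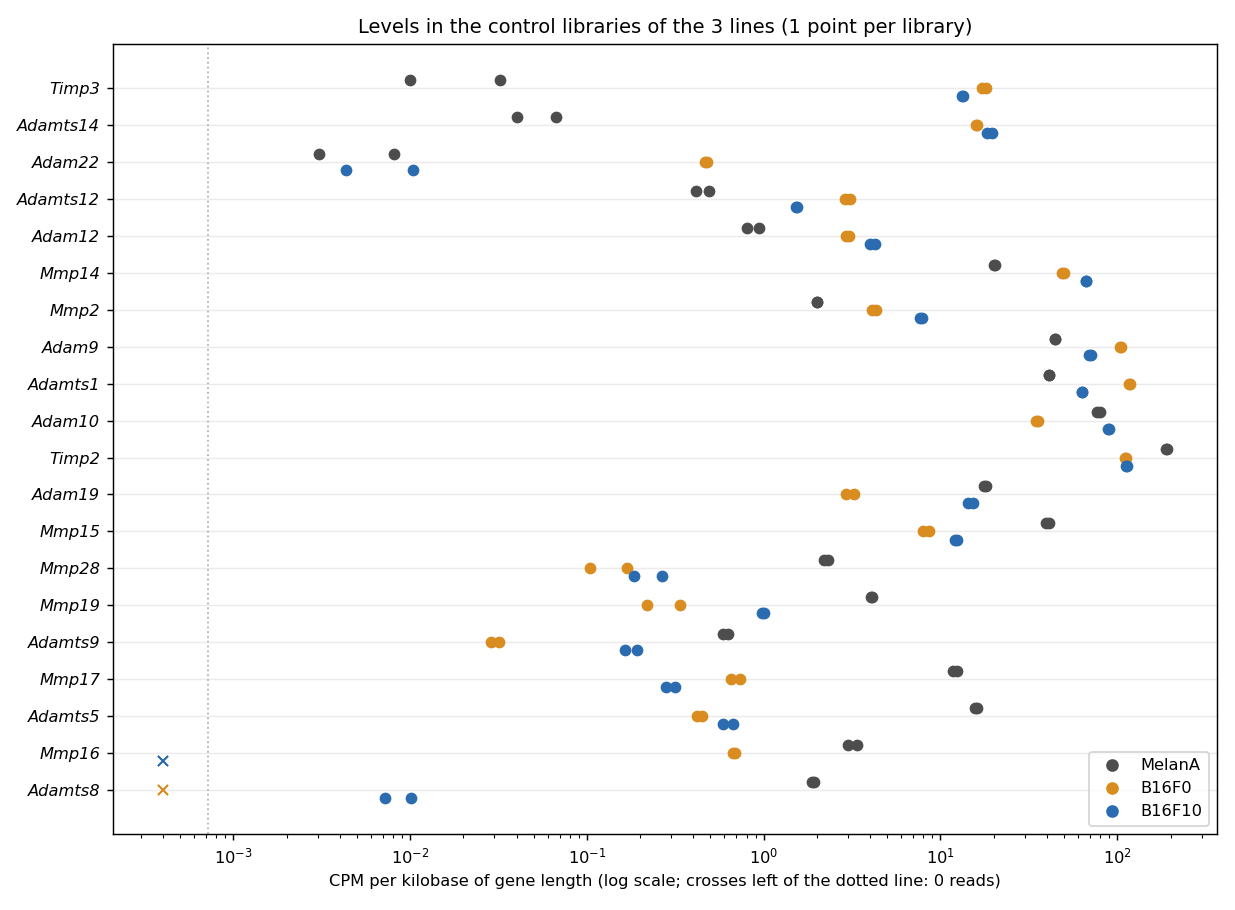
Levels of 20 of the genes in the 6 control libraries, in CPM per kilobase of gene length on a log scale, with 1 point per library and a color per line. Timp3 and Adamts14 sit far to the right in both B16 lines, Mmp17, Adamts5 and Adamts8 sit far to the left, and Mmp16 had no reads in B16F10.

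The untreated lines were compared first, with the share of called genes set beside that of all genes tested. By edgeR's quasi-likelihood test with Benjamini-Hochberg adjustment over the 18338 genes tested, which gives every adjusted p below, 16 of the 43 were higher (37.2%; 35.3% of all genes tested) and 21 lower (48.8%; 40.6% of all genes) in B16F0 than in MelanA. In B16F10 against MelanA 19 were higher (44.2%; 33.4% of all genes) and 16 lower (37.2%; 40.8% of all genes). These comparisons share the MelanA control libraries, and all control libraries are used again in the comparisons with SX-682. Between B16F10 and B16F0 controls 20 were higher in B16F10 (46.5%; 30.8% of all genes) and 14 lower (32.6%; 31.2% of all genes). With a filter of at least 10 reads in every library the calls numbered 25, 27 and 24 of 27 in the same order, beside 82.4%, 80.4% and 75.7% of all 12326 genes that passed that filter.

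SX-682 moved the genes mostly downward in MelanA and B16F10 and in both directions in B16F0. In MelanA 7 of 43 rose (16.3%; 23.4% of all genes) and 19 fell (44.2%; 24.7% of all genes). In B16F0 16 rose (37.2%; 25.1% of all genes) and 12 fell (27.9%; 25% of all genes). In B16F10 4 rose (9.3%; 25.5% of all genes) and 19 fell (44.2%; 25.3% of all genes). The median log2 fold change of the 43 was -0.20, 0.04 and -0.34 in the same order, with a median over all genes of 0 in each line. A second median left out genes at or under 3 reads in every library of both groups, 1 in B16F0 and 5 in B16F10. Remaining genes with no reads in 1 group were set to the bound their counts allow. This median was -0.01 in B16F0 and -0.29 in B16F10. Among the calls 2 rises and 2 falls reached 2-fold in MelanA, 6 and 3 in B16F0, and 2 and 5 in B16F10. With a filter of at least 10 reads in every library the calls numbered 22, 22 and 20 of 27, beside 66.1%, 68.2% and 70.9% of all genes that passed it.

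**Figure D2:**
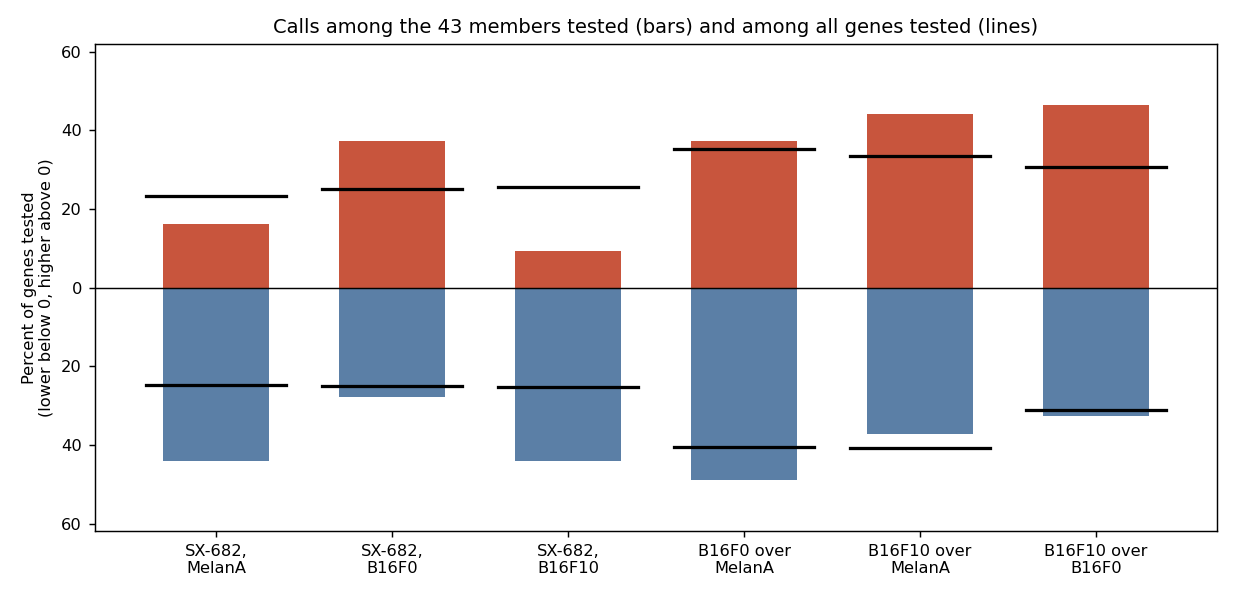
Percent of the 43 genes tested that were higher (red, above 0) or lower (blue, below 0) in each comparison at an adjusted p under 0.05, with the percent over all genes tested as black lines. Falls with SX-682 stand above the background in MelanA and B16F10 (44.2% in both), and rises stand below it there.

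Mmp28 and Timp3 rose with SX-682 in all 3 lines (2 of 43, 4.65%; 11.3% of all genes). Another 7 fell in all 3 (16.3%; 11.7% of all genes): Adam10, Adam11, Adam17, Adamts9, Adamts10, Adamts20 and Timp2. A further 8 of 43 were called in opposite directions in different lines (9.59% of all genes were), namely Adam19, Adam23, Adamts1, Adamts4, Adamts12, Mmp14, Mmp15 and Timp1. Another 6 of 43 (Adam32, Adam33, Adamts8, Adamts13, Mmp10 and Mmp23) passed in no line, as did 29.4% of all genes.

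**Figure D3:**
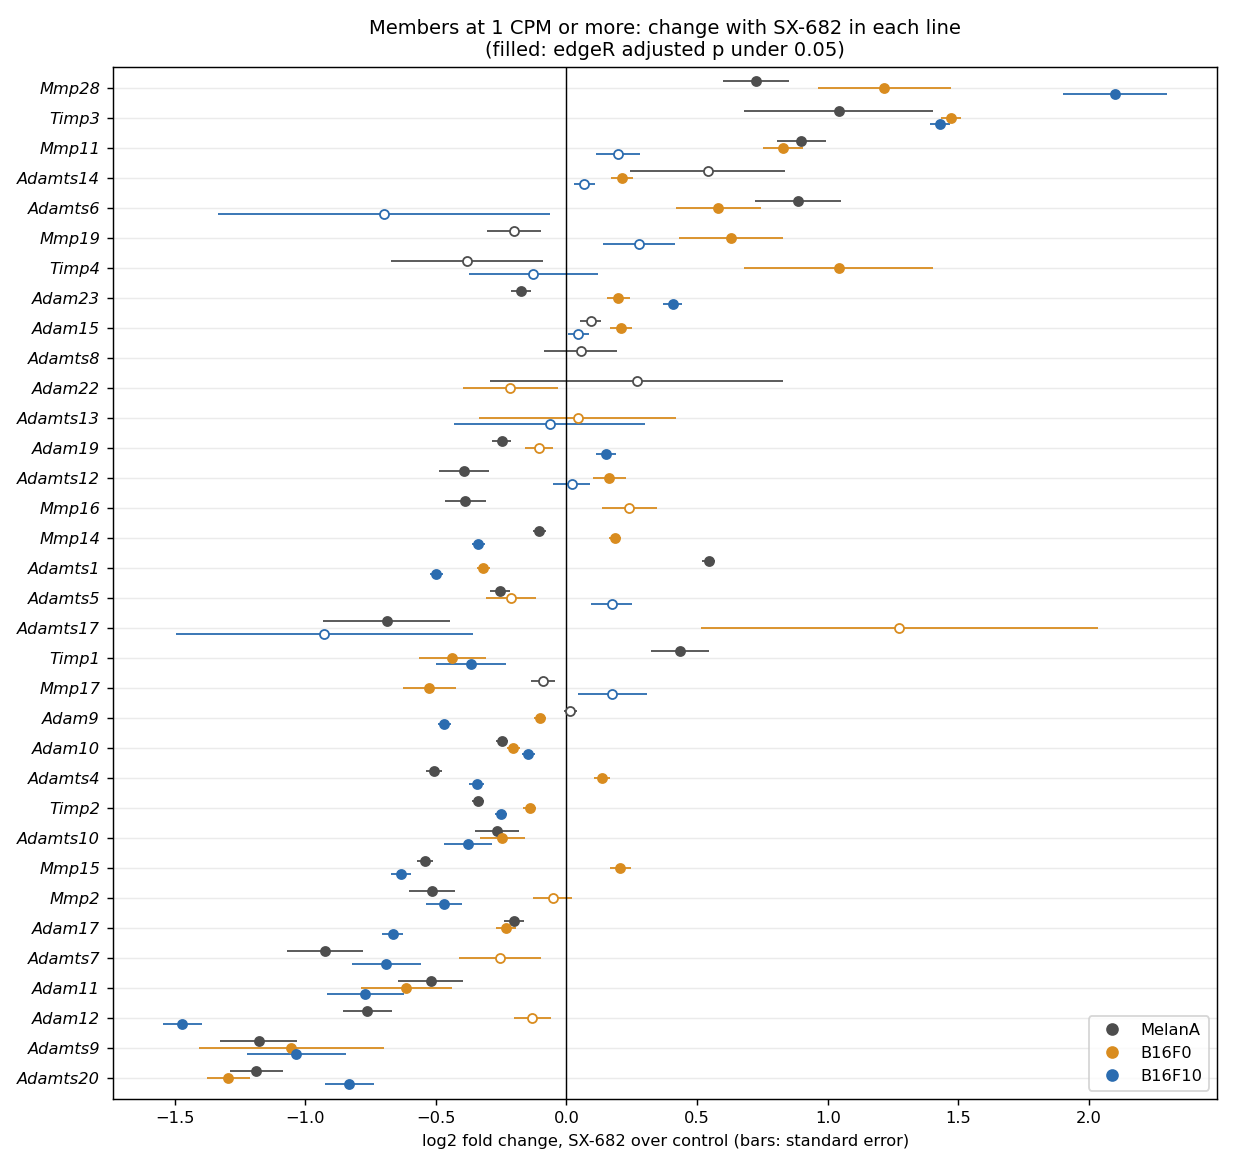
Log2 fold change with SX-682 in each line, with its standard error, for the 34 described genes that reached 1 CPM in some group; filled points passed at an adjusted p under 0.05. Mmp28 and Timp3 lie to the right of 0 in all 3 lines, Adamts9 and Adamts20 to the left, and Adamts1 and Timp1 to the right in MelanA and to the left in both B16 lines.

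Timp3 was close to the floor in MelanA and abundant in both B16 lines. It encodes the matrix-bound inhibitor and lies on chromosome 10 (86300372 to 86349506, mm10, plus strand) within the Syn3 gene on the other strand. MelanA control libraries had 7 and 24 Timp3 reads, and the MelanA libraries with SX-682 had 18 and 35. The B16F0 controls reached 146 and 141 CPM and those with SX-682 403 and 393 CPM, while the B16F10 controls had 109 and 108 CPM and those with SX-682 285 and 298 CPM. Every B16 library was therefore far above every MelanA library, and in both B16 lines the treated libraries lay above both controls. Between controls Timp3 was 812-fold higher in B16F0 than in MelanA (log2 9.67 ± 0.092 SE, adjusted p = 1.94e-35) and 612-fold higher in B16F10 (9.26 ± 0.096, adjusted p = 1.89e-34).

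With SX-682 Timp3 rose 2.77-fold in B16F0 (log2 1.47 ± 0.037 SE, adjusted p = 1.07e-23) and 2.70-fold in B16F10 (1.43 ± 0.038, adjusted p = 2.84e-23), and the 2 responses differed by -0.04 (adjusted p = 0.642). In MelanA the log2 change was 1.04 ± 0.36 (adjusted p = 0.0176), but the libraries overlapped, and the call was lost without control library 1 (log2 0.46, adjusted p = 0.316) and without SX-682 library 2 (0.53, adjusted p = 0.394). Syn3 shares 1733 exonic bases with Timp3 on the opposite strand, and how strand was treated in counting is not given in the sources used here. Syn3 itself had 71 to 130 reads in the 12 libraries and no call with SX-682 in any line.

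Timp2, the inhibitor that also helps membrane-type MMPs activate proMMP2, was the most abundant of the 4 and moved the other way. Its CPM were 737 and 747 in MelanA control, 432 and 438 in B16F0 control, and 435 and 445 in B16F10 control. With SX-682 they were 580 and 592 in MelanA, 392 and 396 in B16F0, and 377 and 362 in B16F10. In each line both treated libraries lay below both controls, and MelanA control lay above all the others. Timp2 was 1.71-fold lower in B16F0 than in MelanA (log2 -0.77 ± 0.023 SE, adjusted p = 6.48e-23) and 1.69-fold lower in B16F10 (-0.75 ± 0.023, adjusted p = 1.26e-22). It fell 1.27-fold with SX-682 in MelanA (adjusted p = 1.87e-13), 1.10-fold in B16F0 (adjusted p = 7.21e-06) and 1.19-fold in B16F10 (adjusted p = 1.76e-10).

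Timp1, the secreted inhibitor with a broad MMP range, responded in opposite directions. It had 7.57 and 6.96 CPM in MelanA control and 9.89 and 9.75 with SX-682, both treated libraries being higher (log2 0.43 ± 0.11 SE, adjusted p = 0.00166). In B16F0 it went from 5.90 and 6.02 to 3.99 and 4.88 CPM (-0.44 ± 0.13, adjusted p = 0.00508), and in B16F10 from 4.86 and 5.18 to 4.44 and 3.35 CPM (-0.37 ± 0.13, adjusted p = 0.0225), the treated libraries being lower in both lines. The B16F0 call was lost without SX-682 library 1 (adjusted p = 0.15), and the B16F10 call without control library 2 or SX-682 library 2 (adjusted p = 0.12 and 0.376). The mean B16 response differed from that of MelanA by -0.84 (adjusted p = 2.61e-05).

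Timp4, an inhibitor of restricted tissue range, differed most between the B16 lines. Its reads were 61 and 70 in MelanA control, 21 and 15 in B16F0 control, and 135 and 172 in B16F10 control, with no overlap between these groups. It was 9.68-fold higher in B16F10 than in B16F0 (log2 3.28 ± 0.31 SE, adjusted p = 1.42e-10). In B16F0 it rose to 30 and 29 reads with SX-682 (1.04 ± 0.36, adjusted p = 0.0169), a call lost without control library 2 or SX-682 library 2 (adjusted p = 0.103 and 0.115). Timp4 also lies within a synapsin gene on the opposite strand, Syn2, with which it shares 90 exonic bases and which was itself highest in B16F10 control (394 and 405 reads).

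**Figure D4:**
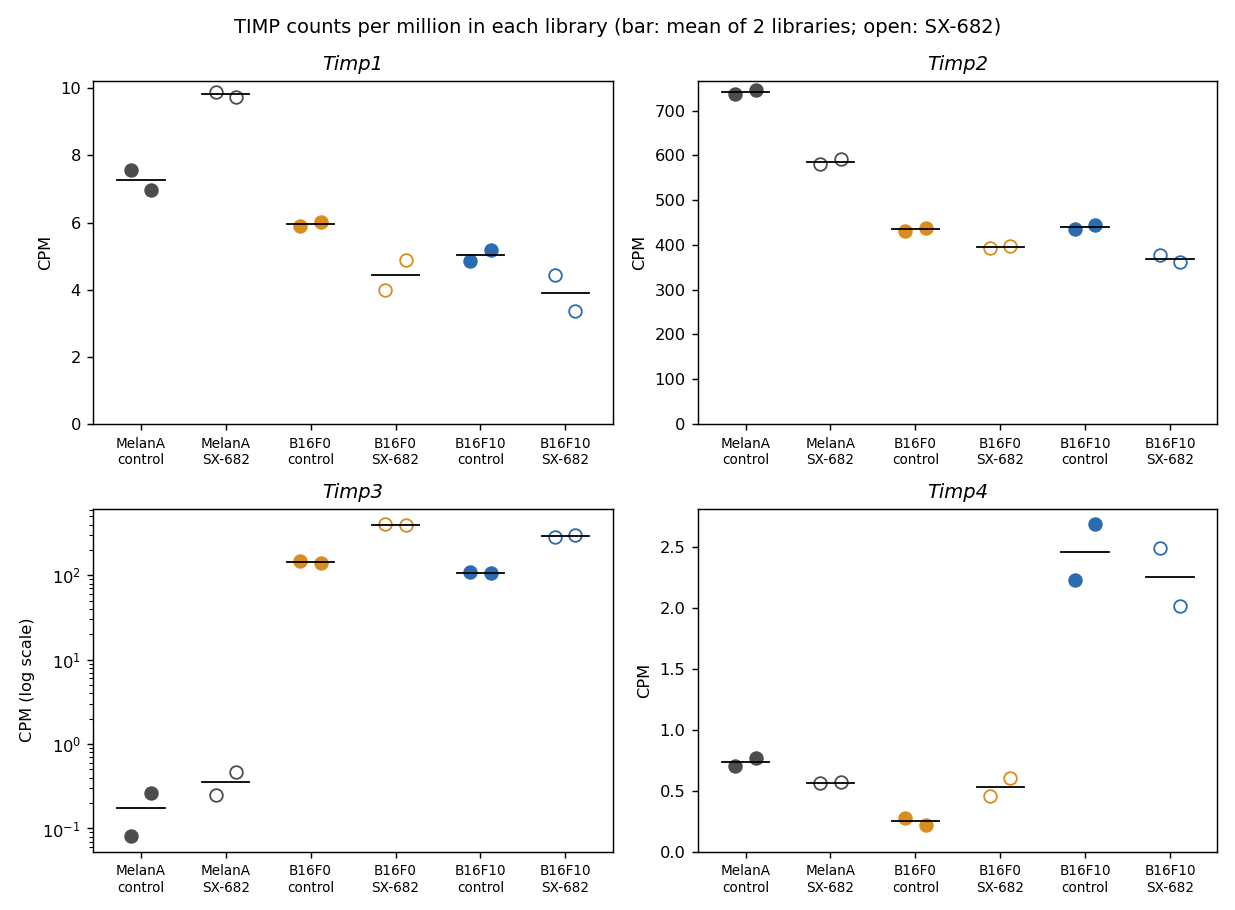
CPM of the 4 TIMP genes in each of the 12 libraries (filled: control, open: SX-682, bar: mean of 2), with a log scale for Timp3 only. Timp3 rises in both B16 lines while Timp2 falls in all 3, and Timp1 moves up in MelanA and down in the B16 lines.

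Summed per length, TIMP transcripts were mostly Timp2 in MelanA and a mixture in B16 cells. Timp2 made up 95.8% ± 0.26 (SD, n = 2) of the TIMP sum in MelanA control, 82.1% ± 0.38 in B16F0 control and 85.4% ± 0.053 in B16F10 control. With SX-682 its share was 65.2% ± 0.23 in B16F0 and 70.0% ± 0.70 in B16F10, where Timp3 made up 31.5% ± 0.68 and 26.4% ± 1.3. The TIMP sum was 199 CPM per kilobase in MelanA control and 162 with SX-682, 136 and 155 in B16F0, and 132 and 135 in B16F10. Set against the sum over MMPs, TIMP transcripts were 2.32-fold as abundant in MelanA control, 1.99-fold in B16F0 control and 1.44-fold in B16F10 control, and 2.25-, 1.93- and 1.86-fold with SX-682. The libraries of B16F10 control (1.43 and 1.46) and B16F10 with SX-682 (1.88 and 1.84) did not overlap in this ratio, while B16F0 control (1.94 and 2.03) and B16F0 with SX-682 (1.93 in both) lay close together. With 2 libraries a group an exact permutation test could not fall below p = 0.333, so no test of the ratio was made. The ratio is one of transcripts and says nothing of protein or activity.

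**Figure D5:**
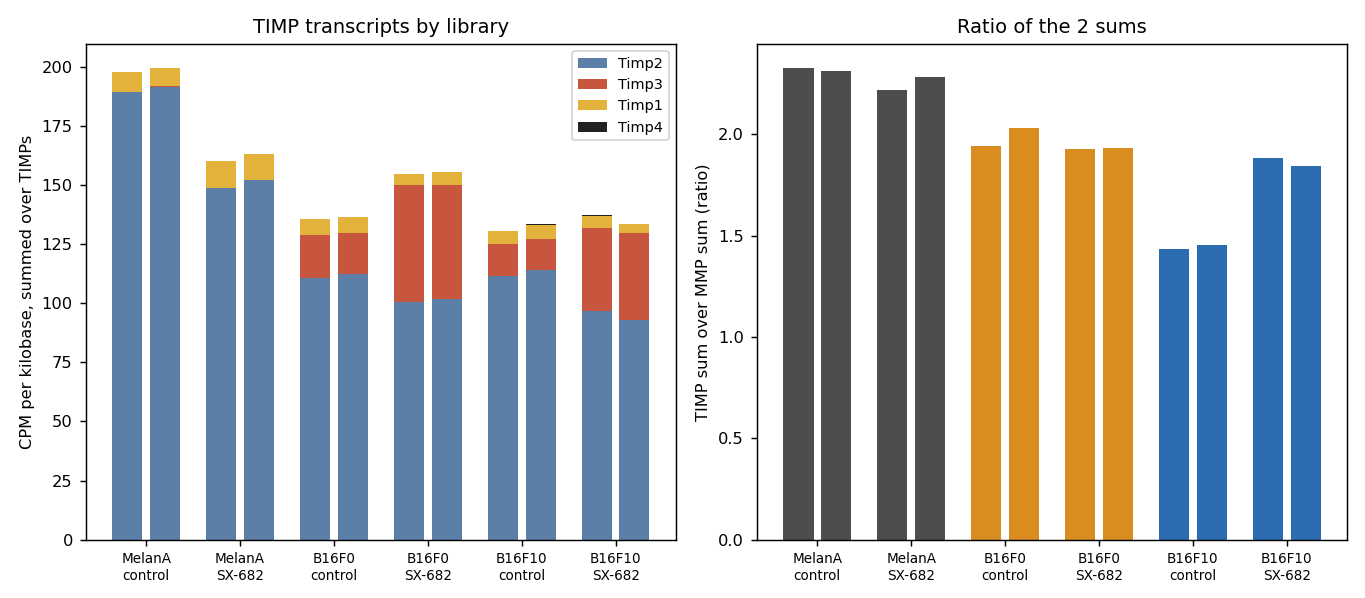
Left, the TIMP sum in CPM per kilobase in each library, stacked by gene; right, the TIMP sum divided by the MMP sum in the same libraries. Timp3 is invisible in MelanA and reaches 31.5% of the sum in B16F0 with SX-682, and the ratio is lowest in B16F10 control.

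Among the membrane-type MMPs the lines differed in which gene was used. Mmp14, the activator of proMMP2 and a collagenase at the cell surface, had 121 and 119 CPM in MelanA control, 298 and 289 in B16F0 control and 395 and 398 in B16F10 control. Mmp15, its transmembrane relative, had 213 and 222 CPM in MelanA control, 46.3 and 43.1 in B16F0 control and 65.1 and 66.8 in B16F10 control. The order of the lines was thus B16F10, B16F0, MelanA for Mmp14 and MelanA, B16F10, B16F0 for Mmp15, with no overlap. Mmp14 was 2.44-fold higher in B16F0 than in MelanA (log2 1.29 ± 0.025 SE, adjusted p = 1.17e-27) and 3.30-fold higher in B16F10 (1.72 ± 0.025, adjusted p = 9.27e-31). Mmp15 was 4.86-fold lower in B16F0 (-2.28 ± 0.036, adjusted p = 4.61e-30) and 3.30-fold lower in B16F10 (-1.72 ± 0.035, adjusted p = 2.82e-27). Of the MMP sum per length Mmp14 made up 23.6% in MelanA control, 71.9% in B16F0 control and 72.7% in B16F10 control, while Mmp15 made up 47.0%, 12.1% and 13.3%.

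Both genes answered SX-682 in the same direction within a line and in different directions between lines. Mmp14 went to 113 and 111 CPM in MelanA (log2 -0.10 ± 0.026 SE, adjusted p = 0.00119), 331 and 337 in B16F0 (0.19 ± 0.024, adjusted p = 1.51e-07) and 316 and 312 in B16F10 (-0.34 ± 0.024, adjusted p = 5.42e-13). Mmp15 went to 148 and 151 CPM in MelanA (-0.54 ± 0.032, adjusted p = 1.22e-14), 51.1 and 52.2 in B16F0 (0.21 ± 0.039, adjusted p = 4.85e-05) and 41.8 and 43.3 in B16F10 (-0.63 ± 0.039, adjusted p = 1.52e-14). Both genes therefore fell in MelanA and B16F10 and rose in B16F0, and the B16F10 response lay below the B16F0 response by 0.52 for Mmp14 (adjusted p = 7.10e-13) and 0.84 for Mmp15 (adjusted p = 7.23e-13).

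Mmp16, another transmembrane MMP, graded from MelanA to no reads. MelanA control had 2510 and 2354 reads, B16F0 control 435 and 401, and all 4 B16F10 libraries had 0. It was 4.67-fold lower in B16F0 than in MelanA (log2 -2.22 ± 0.090 SE, adjusted p = 1.29e-18) and at least 1138-fold lower in B16F10, and B16F10 was at least 244-fold below B16F0. SX-682 lowered it in MelanA to 1503 and 1573 reads (-0.39 ± 0.079, adjusted p = 0.000167). In B16F0 the reads with SX-682 were 496 and 302, for a change of 0.24 that did not pass (adjusted p = 0.0562). It passed under RLE scaling (0.26, adjusted p = 0.0410), with DESeq2 (0.25, adjusted p = 0.0484) and without SX-682 library 2 (0.36, adjusted p = 0.0130).

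Mmp17, which is held in the membrane by a lipid anchor, was also a MelanA gene. It had 78.2 and 82.1 CPM in MelanA control, 4.87 and 4.31 in B16F0 control and 2.08 and 1.85 in B16F10 control, with every MelanA library above every B16 library. The difference was 17.4-fold for B16F0 (log2 -4.12 ± 0.063 SE, adjusted p = 2.96e-30) and 40.8-fold for B16F10 (-5.35 ± 0.075, adjusted p = 3.28e-31). SX-682 lowered it in B16F0 to 3.23 and 3.16 CPM (-0.52 ± 0.10, adjusted p = 5.38e-05) and gave no call in MelanA or B16F10.

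Mmp24, a further transmembrane MMP, stayed near the floor. It had 0 and 5 reads in MelanA control and 15 and 8 with SX-682, 0 and 0 reads in B16F0 control and 18 and 9 with SX-682, and at most 2 reads in any B16F10 library. In B16F0 it was at least 11.2-fold higher with SX-682. Only libraries with SX-682 had over 5 reads, so Mmp24 was tested through them and a rise is built into the filter. Its adjusted p-values (0.000678 in B16F0) are therefore no support for a rise. The MelanA call (adjusted p = 0.0433) was lost without control library 1 and without either treated library (adjusted p = 0.359, 0.339 and 0.0861). Mmp24 shares 637 exonic bases with BC029722 on the opposite strand, which had 1079 to 1953 reads in each library.

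Among secreted MMPs, Mmp2, the gelatinase that Mmp14 activates, was low in MelanA and higher in the melanoma lines. Its CPM were 6.71 and 6.77 in MelanA control, 14.5 and 13.9 in B16F0 control, and 26.6 and 25.8 in B16F10 control. Groups did not overlap, and B16F10 was 3.88-fold above MelanA (log2 1.96 ± 0.074 SE, adjusted p = 2.91e-20). SX-682 lowered Mmp2 in MelanA to 4.80 and 4.64 CPM (-0.51 ± 0.087, adjusted p = 1.10e-05) and in B16F10 to 18.2 and 19.6 CPM (-0.47 ± 0.069, adjusted p = 1.01e-06). In B16F0 it had 14.2 and 13.1 CPM with SX-682, overlapping the controls (adjusted p = 0.603).

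Mmp9, the other gelatinase, was scarce. It had 3 and 9 reads in MelanA control, 27 and 30 in B16F0 control and 51 and 54 in B16F10 control. Between controls it was 12.2-fold higher in B16F10 than in MelanA (log2 3.61 ± 0.49 SE). Mmp9 passed the filter through the B16 lines alone, so this difference is built in and no p-value is given. In B16F0 SX-682 brought it to 55 and 52 reads (1.24 ± 0.40, adjusted p = 0.01), a call lost without control library 1 or SX-682 library 2 (adjusted p = 0.0824 and 0.0758).

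Mmp28, the epithelial MMP epilysin, fell between lines and rose with SX-682. MelanA control had 768 and 775 reads, B16F0 control 49 and 27, and B16F10 control 62 and 46. It was 16.3-fold lower in B16F0 than in MelanA (log2 -4.02 ± 0.19 SE, adjusted p = 6.62e-18) and also lower in B16F10 (-3.32 ± 0.18, adjusted p = 1.92e-16). SX-682 raised it to 1050 and 1057 reads in MelanA, 100 and 43 in B16F0 and 234 and 211 in B16F10. In CPM every treated library lay above both of its controls. The rise was 1.65-fold in MelanA (0.73 ± 0.13, adjusted p = 1.75e-05), 2.32-fold in B16F0 (1.22 ± 0.26, adjusted p = 0.00018) and 4.29-fold in B16F10 (2.10 ± 0.20, adjusted p = 2.22e-10). The B16F0 call was lost without SX-682 library 1 (log2 0.74, adjusted p = 0.0624). Mmp28 shares 466 exonic bases with 1700020L24Rik on the opposite strand, which rose with it in MelanA (log2 0.75, adjusted p = 0.0102) and B16F10 (1.73, adjusted p = 7.86e-05) but not in B16F0 (-0.13, adjusted p = 0.838); reads of the 2 genes cannot be told apart there without strand.

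Mmp11, stromelysin-3, rose with SX-682 in MelanA from 3.59 CPM in both controls to 6.66 and 6.73 CPM (log2 0.90 ± 0.093 SE, adjusted p = 1.74e-09). In B16F0 it rose from 13.2 and 12.6 to 23.4 and 22.4 CPM (0.83 ± 0.076, adjusted p = 1.49e-10), while in B16F10 the change from 8.88 and 9.03 to 10.4 and 10.1 CPM did not pass (0.20 ± 0.084, adjusted p = 0.0547), though it did among genes with at least 10 reads in every library (0.19, adjusted p = 0.0464). The B16F10 response lay below that of B16F0 by 0.63 (adjusted p = 6.02e-05). Mmp11 shares 155 exonic bases with Chchd10 on the opposite strand, which was called higher with SX-682 in all 3 lines. Chchd10 had only 28 and 8 reads in MelanA control and 23 and 31 with SX-682, which overlapped. In the B16 libraries it had 7001 to 14860 reads.

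Mmp19, a widely expressed secreted MMP, was 14.6-fold lower in B16F0 than in MelanA (log2 -3.86 ± 0.14 SE, adjusted p = 1.77e-20) and 4.12-fold lower in B16F10 (-2.04 ± 0.12, adjusted p = 1.81e-15). Its reads were 1252 and 1305 in MelanA control, 89 and 52 in B16F0 control and 209 and 227 in B16F10 control. It shares 789 exonic bases with Tmem198b on the opposite strand, which had 450 to 914 reads, and reads of the 2 genes cannot be told apart there without strand. In B16F0 SX-682 moved Mmp19 to 91 and 83 reads (0.63 ± 0.20, adjusted p = 0.00874), a call lost without control library 2 or SX-682 library 2 (adjusted p = 0.193 and 0.102).

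The sheddase genes Adam10 and Adam17, which release growth factors, cytokines and adhesion molecules from the cell surface, fell with SX-682 in every line. Adam10 went from 391 and 378 to 324 and 324 CPM in MelanA (log2 -0.25 ± 0.024 SE, adjusted p = 3.51e-10), from 174 and 171 to 150 and 149 CPM in B16F0 (-0.20 ± 0.025, adjusted p = 6.81e-08) and from 434 and 443 to 396 and 396 CPM in B16F10 (-0.15 ± 0.024, adjusted p = 4.97e-06). Adam17 went from 71.4 and 70.0 to 63.9 and 59.3 CPM in MelanA (-0.20 ± 0.038, adjusted p = 5.99e-05), from 96.3 and 93.9 to 79.9 and 82.2 CPM in B16F0 (-0.23 ± 0.038, adjusted p = 6.47e-06) and from 95.9 and 97.6 to 59.1 and 63.0 CPM in B16F10 (-0.67 ± 0.039, adjusted p = 5.89e-15). In no line did treated and control libraries of either gene overlap. The Adam17 fall was larger in B16F10 than in B16F0 by 0.43 on the log2 scale (adjusted p = 2.79e-07), and that of Adam10 did not differ between these lines past the threshold (0.06, adjusted p = 0.246). Adam17 shares 311 exonic bases with Iah1 on the opposite strand, which rose in all 3 lines.

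Between untreated lines Adam10 and Adam9, another widely expressed ADAM with sheddase activity, were ordered oppositely in B16F0. Adam10 was 2.23-fold lower in B16F0 than in MelanA (log2 -1.16 ± 0.024 SE, adjusted p = 8.55e-27), whereas Adam9 was 2.34-fold higher, at 429 and 427 CPM against 184 and 182 (1.23 ± 0.024, adjusted p = 1.52e-27). Per length Adam9 made up 61.4% of the ADAM sum in B16F0 control and 27.1% in MelanA control, and Adam10 20.7% and 47.7%. In B16F10 control the shares were 33.0% for Adam9 and 42.0% for Adam10. With SX-682 Adam9 fell in B16F10 from 286 and 291 to 206 and 212 CPM (-0.47 ± 0.024, adjusted p = 3.90e-16) and in B16F0 to 399 CPM in both libraries (-0.10 ± 0.024, adjusted p = 0.000624), with no call in MelanA (0.01, adjusted p = 0.67).

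Adam12 and Adam19, the meltrin genes known from muscle, bone and heart development, went separate ways. Adam12 had 9.93 and 8.48 CPM in MelanA control, 32.3 and 31.0 in B16F0 control and 45.3 and 42.4 in B16F10 control. With SX-682 it dropped to 14.5 and 17.2 CPM in B16F10, below both B16F0 groups, and to 5.09 and 5.73 CPM in MelanA, and stood at 29.9 and 27.9 CPM in B16F0. The fall was 2.77-fold in B16F10 (log2 -1.47 ± 0.074 SE, adjusted p = 1.53e-16) and 1.70-fold in MelanA (-0.76 ± 0.094, adjusted p = 4.80e-08), and the B16F0 change did not pass (-0.13 ± 0.071, adjusted p = 0.132). The B16F10 response was 1.34 below that of B16F0 on the log2 scale (adjusted p = 1.88e-11).

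Adam19 was low in B16F0 alone. It had 126 and 129 CPM in MelanA control, 20.7 and 23.1 in B16F0 control and 102 and 109 in B16F10 control, a 5.81-fold difference between B16F0 and MelanA (log2 -2.54 ± 0.043 SE, adjusted p = 3.00e-29). SX-682 lowered it to 107 CPM in both MelanA libraries (-0.25 ± 0.036, adjusted p = 1.12e-06) and raised it to 117 and 118 CPM in B16F10 (0.15 ± 0.038, adjusted p = 0.00102). The B16F10 call was lost without control library 1 (adjusted p = 0.0534).

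Adam11, Adam22 and Adam23 encode ADAMs without a working protease site that serve in adhesion and as receptors in the nervous system. Adam22 was a B16F0 gene, with 501 and 461 reads in the B16F0 controls and at most 10 in any MelanA or B16F10 library. It was 83.7-fold higher in B16F0 than in MelanA (log2 6.39 ± 0.30 SE) and 63.6-fold higher than in B16F10. Adam22 passed the filter through B16F0 alone, so these differences are built in and no p-value is given. In B16F10 it went from 9 and 4 to 2 and 1 reads with SX-682 (adjusted p = 0.0417), a ratio of 4.15 with a 95% counting interval of 1.14 to 22.7. That call was lost without control library 1 or either treated library (adjusted p = 0.369, 0.0762 and 0.191). Adam23 was highest in B16F10, at 104 and 102 CPM against 54.1 and 51.6 in MelanA and 31.7 and 32.6 in B16F0. It rose with SX-682 to 140 and 134 CPM in B16F10 (0.41 ± 0.035, adjusted p = 3.57e-11) and to 36.4 and 37.4 CPM in B16F0 (0.20 ± 0.043, adjusted p = 0.000251), and fell in MelanA to 46.9 and 46.8 CPM (-0.17 ± 0.038, adjusted p = 0.000312). Adam11 fell in all 3 lines, with log2 changes of -0.52 in MelanA (adjusted p = 0.000838), -0.61 in B16F0 (adjusted p = 0.00382) and -0.77 in B16F10 (adjusted p = 5.77e-05).

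Adam15, which carries an integrin-binding site, was 1.73-fold higher in B16F10 than in MelanA (log2 0.79 ± 0.040 SE, adjusted p = 4.55e-17) and rose with SX-682 in B16F0, from 51.6 and 47.5 to 58.2 and 56.3 CPM (0.21 ± 0.042, adjusted p = 0.000128). Its change in MelanA was 0.09 (adjusted p = 0.0633), which passed under 5 alternatives: RLE scaling, at least 10 reads in every library, the replicate block, a separate fit of the 4 libraries and DESeq2 (adjusted p = 0.0425, 0.0282, 0.04999, 0.0383 and 0.0364). Adam8, a leukocyte and tumor ADAM, was scarce, with 52 and 67 reads in MelanA control, 7 and 20 in B16F0 control and 20 and 26 in B16F10 control. With SX-682 it had 2 and 2 reads in B16F0, 5.41-fold below the controls (95% counting interval 1.89 to 21.3), and 8 and 8 in B16F10. Both calls (adjusted p = 0.0118 and 0.0323) depended on single libraries: that of B16F0 was lost without control library 2 (adjusted p = 0.28) or SX-682 library 1 (adjusted p = 0.0926), and that of B16F10 without control library 2 or either treated library (adjusted p = 0.129, 0.107 and 0.0963).

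Adamts1, Adamts4 and Adamts5 encode proteoglycanases that cut aggrecan and versican, and Adamts1 lies next to Adamts5 on chromosome 16. Adamts5 marked MelanA, with 174 and 169 CPM against 4.83 and 4.54 in B16F0 control and 6.33 and 7.23 in B16F10 control, a 36.5-fold difference for B16F0 (log2 -5.19 ± 0.056 SE, adjusted p = 4.29e-34) and 25.2-fold for B16F10 (-4.66 ± 0.054, adjusted p = 3.14e-33). Its neighbour Adamts1 was higher in the melanoma lines, with 218 CPM in both MelanA controls, 619 and 624 in B16F0 and 335 and 336 in B16F10. The 2 adjacent genes thus differed between lines in opposite directions. Adamts4 had 121 and 119 CPM in MelanA control, 113 and 109 in B16F0 control and 192 and 189 in B16F10 control, and was 1.59-fold higher in B16F10 than in MelanA (0.67 ± 0.030, adjusted p = 1.38e-18).

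The response of Adamts1 to SX-682 separated MelanA from both melanoma lines. It rose in MelanA to 312 and 323 CPM (log2 0.54 ± 0.024 SE, adjusted p = 9.80e-18) and fell in B16F0 to 494 and 504 CPM (-0.32 ± 0.023, adjusted p = 1.13e-12) and in B16F10 to 235 and 241 CPM (-0.50 ± 0.024, adjusted p = 5.91e-17). Treated and control libraries did not overlap in any line, and the mean B16 response was 0.95 below that of MelanA on the log2 scale (adjusted p = 5.81e-21). Adamts4 fell in MelanA to 85.8 and 82.8 CPM (-0.51 ± 0.031, adjusted p = 1.56e-14) and in B16F10 to 150 CPM in both libraries (-0.34 ± 0.030, adjusted p = 3.31e-11), and rose slightly in B16F0 to 124 and 120 CPM (0.14 ± 0.031, adjusted p = 0.000387). Adamts5 fell in MelanA to 143 and 145 CPM (-0.26 ± 0.038, adjusted p = 1.23e-06). It had no call in either B16 line with all libraries, but passed without SX-682 library 2 in B16F0 (-0.31, adjusted p = 0.0268), and in B16F10 without control library 2 or SX-682 library 2 (0.27 and 0.24, adjusted p = 0.0241 and 0.0387).

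Adamts14, a procollagen N-proteinase, followed Timp3 in being almost absent from MelanA. It had 30 and 19 reads in MelanA control, against 84.1 and 82.3 CPM in B16F0 control and 101 and 95.1 CPM in B16F10 control, differences of 299-fold (log2 8.22 ± 0.093 SE, adjusted p = 1.33e-33) and 352-fold (8.46 ± 0.091, adjusted p = 5.17e-34). SX-682 raised it in B16F0 to 94.3 and 98.6 CPM (0.21 ± 0.042, adjusted p = 7.98e-05), with no call in MelanA or B16F10. Adamts12, a matrix proteinase of cartilage and tumors, had 5.35 and 4.54 CPM in MelanA control, 31.5 and 33.7 in B16F0 control and 16.8 and 16.7 in B16F10 control, a 6.60-fold difference for B16F0 (2.72 ± 0.075, adjusted p = 7.31e-24). With SX-682 Adamts12 fell in MelanA to 3.70 and 3.82 CPM (-0.39 ± 0.096, adjusted p = 0.00109), with an adjusted p = 0.0633 without control library 1. It rose in B16F0 to 36.1 and 36.9 CPM (0.16 ± 0.063, adjusted p = 0.0312), a call lost without control library 1, SX-682 library 1 or SX-682 library 2 (adjusted p = 0.283, 0.0786 and 0.128). Adamts13, which cuts von Willebrand factor, had 0 and 1 reads in MelanA control and 66 and 38 in B16F0 control, a ratio of 130 (95% counting interval 22.8 to 5169).

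Adamts8 was the converse. It had 763 and 786 reads in MelanA control and 661 and 667 in MelanA with SX-682, but 0 in both B16F0 controls and at most 3 in any B16 library. It was at least 414-fold lower in B16F0 than in MelanA, and 217-fold lower in B16F10 (95% counting interval 93.0 to 671). Adamts8 passed the filter through MelanA alone, so these differences are built in and no p-value is given. Adamts17, a proteinase of connective tissue, had 328 and 357 reads in MelanA control and at most 14 in any B16 library, an 87.6-fold difference for B16F0 (log2 -6.45 ± 0.42 SE, adjusted p = 1.98e-14). SX-682 brought Adamts17 in MelanA to 174 and 177 reads (-0.69 ± 0.24, adjusted p = 0.0198), and the call was lost whichever of the 4 MelanA libraries was left out (adjusted p = 0.0846 to 0.114). Adamts6, a relative of Adamts10, had 190 and 214 reads in MelanA control, 255 and 237 in B16F0 control and 6 in each B16F10 control, and was 35.3-fold lower in B16F10 than in B16F0 (-5.14 ± 0.29, adjusted p = 1.01e-15). SX-682 raised Adamts6 in MelanA to 317 and 299 reads (0.89 ± 0.17, adjusted p = 4.15e-05) and in B16F0 to 336 and 254 reads (0.58 ± 0.16, adjusted p = 0.00357).

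Adamts9 and Adamts20 are close relatives that cut versican, and loss of Adamts20 gives belted mice, whose melanocytes fail to fill the trunk. Both fell with SX-682 in all 3 lines. Adamts20 went from 8.30 and 7.33 to 3.52 and 3.34 CPM in MelanA (log2 -1.19 ± 0.10 SE, adjusted p = 3.72e-11), from 30.5 and 27.6 to 12.3 and 11.3 CPM in B16F0 (-1.30 ± 0.082, adjusted p = 4.97e-14) and from 11.7 and 11.8 to 6.17 and 7.04 CPM in B16F10 (-0.83 ± 0.094, adjusted p = 8.79e-09). Adamts9 went from 762 and 857 to 276 and 315 reads in MelanA (-1.18 ± 0.15, adjusted p = 7.06e-08), from 36 and 29 to 14 and 11 in B16F0 (-1.05 ± 0.35, adjusted p = 0.0136) and from 174 and 159 to 96 and 60 in B16F10 (-1.03 ± 0.19, adjusted p = 2.85e-05). All treated libraries lay below their controls in CPM. The B16F0 call of Adamts9 was lost without control library 1 or SX-682 library 1 (adjusted p = 0.0772 and 0.0967). Between controls Adamts9 was 19.9-fold lower in B16F0 than in MelanA (adjusted p = 3.16e-18), while Adamts20 was 3.72-fold higher (adjusted p = 8.43e-19).

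Adamts7 and Adamts10, which act on cartilage matrix protein and on fibrillin microfibrils, were of middling level. Adamts7 fell with SX-682 in MelanA from 6.21 and 5.51 to 3.46 and 2.72 CPM (log2 -0.92 ± 0.14 SE, adjusted p = 3.15e-06) and in B16F10 to 6.93 and 7.56 CPM, both below its controls, (-0.69 ± 0.13, adjusted p = 4.88e-05). In B16F0 its 2.61 and 3.93 CPM with SX-682 overlapped the controls (adjusted p = 0.195), and without SX-682 library 2 the fall there passed (-0.55, adjusted p = 0.0104). The log2 changes of Adamts10 were -0.38 in B16F10 (adjusted p = 0.000845), -0.25 in B16F0 (adjusted p = 0.0188) and -0.27 in MelanA (adjusted p = 0.00957). The MelanA call was lost without control library 2 or SX-682 library 2 (adjusted p = 0.0773 and 0.241), and the B16F0 call whichever of its 4 libraries was left out (adjusted p = 0.0597 to 0.0962).

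Tests of the difference between responses were made for all 43 genes. Between the mean of the B16 lines and MelanA, 11 responses were higher in B16 (25.6%; 18.7% of all genes) and 7 lower (16.3%; 17.1% of all genes). Between B16F10 and B16F0, 6 were higher in B16F10 (14.0%; 15.3% of all genes) and 13 lower (30.2%; 14.9% of all genes). The 13 were Adam9, Adam12, Adam15, Adam17, Adamts1, Adamts4, Mmp2, Mmp11, Mmp14, Mmp15, Mmp24, Timp2 and Timp4.

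Related gene groups were counted beside these, with no test of the group, and 23.4% to 25.5% of all genes tested were called in each direction with SX-682 in a line. Of 16 regulators of the plasminogen system and of MMPs 12 were tested, and SX-682 raised 4 and lowered 4 in MelanA, 3 and 4 in B16F0, and 2 and 4 in B16F10. Plat, the tissue plasminogen activator, fell in every line (log2 -0.14, -0.44 and -0.32, with adjusted p = 0.0154, 1.85e-07 and 1.36e-06). Reck, a membrane-anchored MMP inhibitor, fell in MelanA (log2 -0.37, adjusted p = 1.60e-06) and B16F0 (-0.23, adjusted p = 0.000841). Plau, urokinase, had 7 and 11 reads in MelanA control, 1485 and 1278 in B16F0 control and 57 and 67 in B16F10 control. Pcsk6, a convertase, had 8653 and 8779 reads in MelanA control and at most 2 in any B16 library.

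Of 9 partners that carry ADAM10 or ADAM17 to the cell surface all were tested, and SX-682 raised 4 and lowered 4 in MelanA and raised 2 and lowered 4 in each B16 line. Rhbdf2, the inactive rhomboid that accompanies ADAM17, rose in all 3 lines (log2 0.43, 0.96 and 0.94, with adjusted p = 2.80e-10, 1.17e-18 and 1.18e-18). Frmd8, which stabilizes that complex, rose in MelanA (0.30, adjusted p = 9.23e-10) and fell in B16F0 (-0.33, adjusted p = 1.96e-09) and B16F10 (-0.78, adjusted p = 2.75e-18). The ADAM10 partners Tspan14 and Tspan15 fell in every line, Tspan14 with log2 changes of -0.28, -0.59 and -0.70 (adjusted p = 6.96e-08, 1.45e-13 and 8.89e-16). Of 7 EGFR ligands 4 were tested. Egf rose in every line (1.70, 2.26 and 2.55, with adjusted p = 3.29e-05, 3.09e-07 and 5.55e-07) from 12 to 51 reads in the controls, and Tgfa fell in MelanA and B16F0. All 7 ADAMTS-like genes were tested. Compared with MelanA 7 of 7 were lower in B16F0 (40.6% of all genes) and 6 of 7 in B16F10 (40.8% of all genes), and Adamtsl4 and Papln fell with SX-682 in all 3 lines.

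Markers of cell types were read beside these results. The 7 melanocyte markers were above 3 reads in every group, and their summed level was 1344 to 1374 CPM in MelanA control against 18580 to 18664 in B16F0 control and 24442 to 24471 in B16F10 control. Sox10 (670 CPM) led the MelanA control sum, in which Tyr had 0.83 and Pmel 8.11 CPM. Of the 7, only Sox10 was lower in the B16 controls than in MelanA. With SX-682 the sum ranged from 1346 to 1355, 15770 to 15958 and 14947 to 15188 CPM. In MelanA Tyr, Dct, Mlana and Mitf fell (log2 -1.55, -0.39, -0.20 and -0.36), and Tyrp1 and Sox10 rose (0.42 and 0.16). All 7 fell in B16F0 (25% of all genes did) and in B16F10 (25.3% of all genes). Fibroblast markers summed to 60.7 to 60.9 CPM in MelanA control, 15.9 to 16.6 in B16F0 control and 8.42 to 9.72 in B16F10 control. Of these 6, 3 (Dcn, Lum and Thy1) were at or under 3 reads in both B16 lines. Of the 5 tested, 2 were higher and 3 lower in B16F0 control than in MelanA control (35.3% and 40.6% of all genes). In B16F10 control 1 was higher and 4 lower (33.4% and 40.8% of all genes). Col1a2 was higher in both B16 lines (log2 1.62 and 2.75), while Pdgfra was higher in B16F0 (1.02) and lower in B16F10 (-1.58). In MelanA with SX-682 the fibroblast markers summed to 53.1 to 53.5 CPM. There Lum (log2 -2.41, adjusted p = 1.35e-09), Dcn (-1.36, adjusted p = 0.000532) and Col1a2 (-1.51, adjusted p = 0.000315) fell, whereas Col1a1, which led the sum, stayed at 46.4 and 46.0 CPM (-0.01, adjusted p = 0.891). Keratinocyte markers summed to at most 10.4 CPM and endothelial markers to at most 2.43 CPM in any library. Of 5 macrophage markers the 4 in the table summed to 25.1 to 25.3 CPM in MelanA control and 50.9 to 52.2 with SX-682. The higher sum was Cd68 alone, which went from 15.9 and 16.1 to 43.9 and 45.3 CPM (log2 1.48, adjusted p = 1.04e-17), while Lyz2 fell (-0.62, adjusted p = 0.00354) and Ptprc and Csf1r had no call (adjusted p = 0.985 and 0.647). The sum went from 10.3 to 12.1 CPM in B16F0 control to 14.2 to 16.2 with SX-682, and from 26.0 to 27.0 CPM in B16F10 control to 24.6 to 25.4 with SX-682. The part of these levels in the results was not tested. Fewer cells of a type and less RNA per cell cannot be told apart in bulk samples.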

How the data were processed

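RNA-seq read counts per gene were used as the authors deposited them for the 12 libraries. Per the submitters' processing notes reads were trimmed with cutadapt and aligned with STAR to mm10, and DESeq2 was among the tools; versions, the counting program, strand setting and annotation are not given in the sources used here. The files also give a gene length, which equals the summed exons of GENCODE M21 for all 69 genes and was used for CPM per kilobase. Library totals ran from 48876982 to 85322092, and intervals and floors cover counting error only.

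Counts were filtered with filterByExpr, scaled by TMM and fitted over all 6 groups with edgeR 4.0.16 (R 4.3.3, limma 3.58.1, quasi-likelihood test). Adjusted p-values are Benjamini-Hochberg over all 18338 genes tested, and a call is an adjusted p under 0.05. Fold changes use a prior count of 0.125, and fitted folds were replaced by bounds or counting intervals for genes with at most 3 reads in each library of a group. The alternatives were DESeq2 1.42.0 (local dispersion fit), RLE scaling, no filter, at least 10 reads in every library, a replicate block, each library left out, thinning to the smallest library, a fit of 2 groups and a prior count of 2. Promoter sequences are from RefSeq (GRCm38.p6), with 42 of 69 symbols matched. Tables and figures used Python 3.11.15.

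Genes described were a core list of TIMPs, membrane-type MMPs, gelatinases, sheddases and proteoglycanases, plus up to 5 rises and 5 falls per comparison of largest fold change among calls of at least 1 CPM whose libraries did not overlap. Genes, lists and motifs were chosen with earlier results of these data known, so their counts are descriptions.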

Additional observations from a re-analysis of the deposited data

Results flagged for a closer look

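The response to SX-682, taken as the log2 fold change between treated and control libraries, differed between lines for the genes below by a test of the difference itself (edgeR's quasi-likelihood test, Benjamini-Hochberg adjusted p under 0.05 over all genes tested).

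The mean response of B16F0 and B16F10 exceeded that of MelanA, by the log2 difference given, for Mmp28 (0.93), Mmp19 (0.65), Adamts12 (0.48), Adam23 (0.48), Adamts7 (0.45), Adamts4 (0.40), Mmp15 (0.33), Adam19 (0.27), Adamts5 (0.24) and Timp2 (0.14). It lay below that of MelanA for Adamts1 (-0.95), Adamts6 (-0.94), Timp1 (-0.84), Mmp11 (-0.39), Adam9 (-0.30) and Adam17 (-0.25). The mean hides lines that responded differently: Mmp15 rose in B16F0 (0.21) and fell in B16F10 (-0.63), where its response lay below that of MelanA (-0.54). Adamts4 (0.14 and -0.34, with -0.51 in MelanA) likewise rose in B16F0 and fell in B16F10. The responses of Mmp11 (0.83) and Adam17 (-0.23) in B16F0 lay near those of MelanA (0.90 and -0.20), and B16F10 differed (0.20 and -0.67). Adamts6 rose in B16F0 (0.58) and MelanA (0.89), and had only 6 and 6 reads in B16F10 control and 5 and 2 with SX-682. Adam8 responded lower in B16 as well, at low counts (adjusted p = 0.0355). The calls for Adam8, Adamts5, Adamts6 and Adamts7 were lost when single libraries were left out, with adjusted p up to 0.181 for Adam8 without MelanA SX-682 library 1, 0.0739 for Adamts5 without B16F0 SX-682 library 2, 0.178 for Adamts6 without B16F10 SX-682 library 2 and 0.349 for Adamts7 without MelanA SX-682 library 2.

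Between the B16 lines, the response of B16F10 exceeded that of B16F0 for Mmp28 (0.88), Mmp17 (0.70), Adamts20 (0.46), Adamts5 (0.39), Adam19 (0.26) and Adam23 (0.21). It lay below for Adam12 (-1.34), Timp4 (-1.17), Mmp15 (-0.84), Mmp11 (-0.63), Mmp14 (-0.52), Adamts4 (-0.48), Adam17 (-0.43), Mmp2 (-0.42), Adam9 (-0.37), Adamts1 (-0.18), Adam15 (-0.16) and Timp2 (-0.11), and for Mmp24 (adjusted p = 0.00800). Mmp24 had reads with SX-682 in B16F0 and none in B16F10. It was tested only through libraries with SX-682, so this adjusted p is no support for a difference. The calls for Mmp28 and Timp4 were lost when single libraries were left out, with adjusted p up to 0.505 for Mmp28 without B16F0 control library 1 and 0.154 for Timp4 without B16F0 SX-682 library 2. Those for Adam15, Adamts5 and Timp2 were lost in the same way (adjusted p up to 0.252 without B16F0 control library 2, 0.186 without B16F0 SX-682 library 1 and 0.115 without B16F10 SX-682 library 2). Those for Adam19, Adamts20 and Mmp24 were each lost without 1 library (B16F0 control 2, B16F10 SX-682 2 and B16F10 control 1, with adjusted p = 0.054, 0.0579 and 0.0709).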

How the results depend on the processing

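No number of calls moved by more than 1.5 times under any alternative run. Over all alternatives, leaving out each library included, the calls with SX-682 ranged from 22 to 27 in MelanA, 21 to 29 in B16F0 and 20 to 23 in B16F10. Those between controls ranged from 25 to 38 for B16F0 and MelanA, 27 to 37 for B16F10 and MelanA, and 24 to 34 for B16F10 and B16F0, and those of differing responses from 14 to 18 and 14 to 20. Of 3823 recomputed fold changes of described genes none reversed while called, 3643 kept direction and side of the threshold, 132 lost it and 48 gained it. The causes were not tested. With the replicate number as a replicate block the calls numbered 26, 28, 22, 37, 35, 33, 17 and 18 in the same order. Same-numbered libraries did not deviate together (correlations -0.028, -0.011 and -0.0089 in MelanA, B16F0 and B16F10). With 2 libraries a group this cannot show whether they shared a culture or day, and the labels do not say what the number marks. With all libraries thinned to the smallest, the call of Mmp24 with SX-682 in MelanA was lost (adjusted p = 0.118), as were those of Adam8 and Adam22 in B16F10 (adjusted p = 0.159 and 0.201).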
